A study of Homo sapiens with 3 samples.

Results

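Gene expression was examined in UM-UC-3 cells, an established human bladder cancer line, after transfection with a negative control siRNA. The cells came from 1 array, the control siRNA array, of 3 arrays in the series. It was chosen by its label, and all 19775 genes that its probe sets name singly were ranked by the intensity of their highest probe set. The study silenced the long noncoding RNA DANCR with a pair of siRNAs in this line and compared those cells with this control. The control cells were grown in DMEM with fetal bovine serum, received 75 nM of siRNA with a lipid transfection reagent and were harvested after 48 h. All 3 groups share the line, the siRNA dose and the reagent, so the array describes transfected cells and not untouched ones. No second control array was at hand, so no value below has a replicate and no difference was tested. The negative control siRNA that these cells carried was, from 5′ to 3′ as the labels give it:

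control siRNA: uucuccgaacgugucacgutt

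Bladder cancer arises mostly from the urothelium, the layered epithelium of the bladder. Its luminal cells carry uroplakins, keratin 20 and the transcription factors GATA3, FOXA1 and PPARG, and its basal cells carry keratins 5 and 14. Tumours and cell lines can keep either programme or lose both and take on mesenchymal features, in which E-cadherin gives way to vimentin and to the repressor ZEB1. A line's receptors, matrix, secreted factors and enzymes determine which signals it can receive and send, and which nutrients it can make or take up.

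The array held 54675 probe sets with intensities from 1.03 to 9628, on a linear scale. An intensity is the brightness of a set of short probes against one transcript. Probe sets bind with different efficiency, so the ranks order brightness and not transcript numbers, and no gene is said to be expressed more than another. The median over all probe sets, 10.5, served as a floor. Of the 19775 genes, 12236 (61.9%) had a probe set above it, 5095 reached 100 and 561 reached 1000. That 61.9% is the share to set beside each list count below. The share was 77.1% with the floor at the 30th percentile, 44.3% at the 70th and 54.5% by the median over probe sets. As a reference for unspecific signal, 82 olfactory receptor genes, which encode odour receptors of the nose, had a median of 4.20 and a highest value of 20.2. Of these genes 10 (12.2%) lay above the floor, and their 95th percentile was 13.5, so a value between 10.5 and 13.5 is not told apart from such signal. Probe sets of the same gene often disagreed. Among 10523 genes with more than 1 probe set, 4459 (42.4%) had probe sets on both sides of the floor. The 3'/5' ratio of the control probe sets was 11.9 for ACTB and 1.25 for GAPDH. For ACTB the 3' probe set was at 3208 and the 5' one at 270, so signal differed strongly with position along this transcript. How far such a bias lowers other dim values was not tested. The array's number limits the precision of all values.

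**Figure D1:**
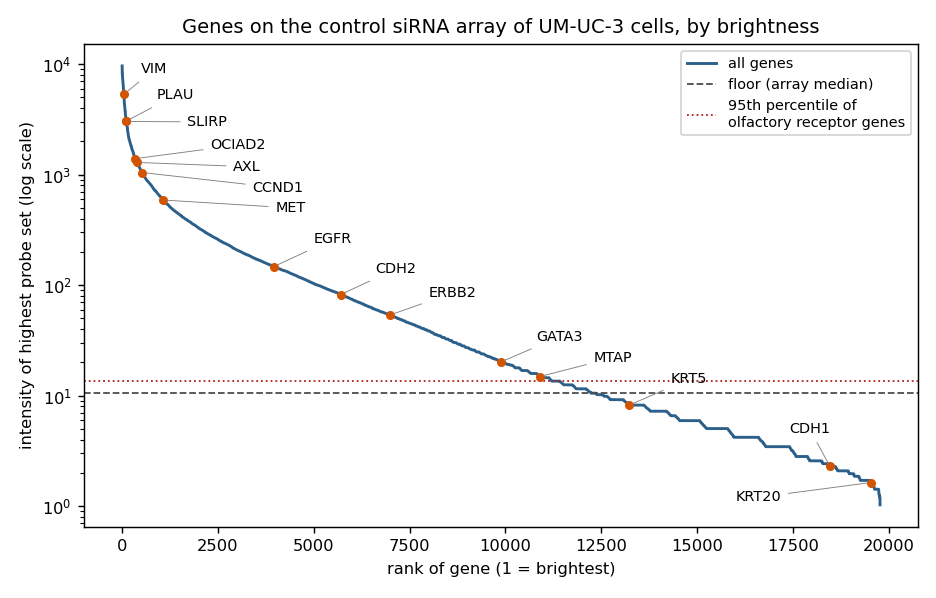
Intensity of the highest probe set (log axis) of each of 19775 genes against its rank on the control siRNA array. Labelled points mark named genes, the dashed line is the floor at 10.5 and the dotted line is the 95th percentile of olfactory receptor genes at 13.5. VIM, PLAU and SLIRP lie near the top of the curve, while KRT5, CDH1 and KRT20 lie under the floor.

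The brightest genes were those of protein synthesis. Of the 30 brightest, 20 encode ribosomal proteins, led by RPL41 at 9628, RPLP1 at 8534 and RPS4X at 8514, and of the 100 brightest 45 do. Of 55 measured ribosomal protein genes, 53 (96.4%) lay above the floor, against 61.9% of all genes. Those at or under it were RPL10L and RPL39L, copies known for use in testis. The others in the top 30 included EEF1A1, the factor that brings tRNA to the ribosome, at 7961, the glycolytic enzyme GAPDH at 7707, and TPT1, a translationally controlled tumour protein, at 7527. ND4, a subunit of respiratory complex I encoded in mitochondria, was at 7201. PABPC1, which binds the poly(A) tail of mRNA, was at 7039 and PPIA, a prolyl isomerase, at 6628. The actin-binding peptide TMSB10 at 7182 and the tubulin TUBA1B at 6835 stood for the cytoskeleton, and the ubiquitin gene UBB was at 6433. Among the 30, ANXA2 was the gene for a membrane protein that binds tissue plasminogen activator and plasminogen, with 8132.

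All 5 genes given as markers of these cells were bright. PLAU, the urokinase that activates plasminogen, was at 3052 and 321 on its 2 probe sets and brighter than 99.5% of genes. SLIRP, which binds mitochondrial mRNA, had 1 probe set at 3025. OCIAD2, a protein of endosomes and mitochondria, had 1 at 1395. AXL, a receptor tyrosine kinase that binds GAS6, was at 1290 and 43.9 on its 2 probe sets, and CCND1, cyclin D1 of the G1 phase, at 1044 and 850. These markers are not specific to the bladder, so they do not test the tissue of origin. The urothelial lists below bear on that.

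Luminal urothelial genes were dim. Of 20 measured members, 8 were above the floor and none reached 100, against 61.9% of all genes above the floor, and the median member was brighter than 32.5% of genes. The count depends on the floor: it was 15 with the floor at the 30th percentile, where 77.1% of all genes passed, 2 at the 70th, where 44.3% passed, and 4 by the median over probe sets, where 54.5% passed. All 5 uroplakin genes, for the plaques of the bladder's surface, lay under the floor, with UPK3B at 10.2, UPK2 and UPK3A at 7.23, UPK1B at 7.23 and UPK1A at 5.03. KRT20, keratin 20 of umbrella cells, was at 1.63. The luminal transcription factors were dim or under the floor. GATA3 had 20.2 on 1 of 3 probe sets, the same as the highest olfactory receptor gene, and FOXA1 had 15 on 1 of 2. PPARG at 12.5 was not told apart from unspecific signal, while ELF3 at 9.20 and GRHL3 at 5.03 were under the floor. CD24, a surface glycoprotein at 86.2 with 5 of 6 probe sets above the floor, and the T-box factor TBX3 at 77.1 were the brightest members.

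Basal and squamous genes gave a like picture. Of 15 measured members 7 (46.7%) were above the floor, against 61.9% of all genes, and the median member was brighter than 36% of genes. By the median over probe sets 4 were above it, where 54.5% of all genes passed. With the floor at the 70th percentile 3 were, where 44.3% of all genes passed. KRT5 was at 8.21, KRT14 at 2.57, KRT16 at 5.03 and the desmosomal cadherin DSG3 at 9.86. CD44, the hyaluronan receptor, was the exception at 1433, with 10 of 13 probe sets above the floor. SFN, the 14-3-3 sigma protein, was at 88.4, but its other probe sets were at 11.5 and 12.5, not told apart from unspecific signal. ITGA6, an integrin of hemidesmosomes, was at 64.6 and 16.4 on its 2 probe sets. CDH3, P-cadherin, was at 15.9 and TRIM29 at 10.7, at the edge of the floor.

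Of 26 epithelial junction genes, 13 (50%) were above the floor, against 61.9% of all genes. With the floor at the 30th percentile 20 were, where 77.1% of all genes passed, and 5 at the 70th, where 44.3% passed. CDH1, E-cadherin, was at 2.28 on the brighter of 2 probe sets and EPCAM at 1.86. The splicing factor ESRP1 at 5.29 and the epithelial transcription factor GRHL2 at 7.23 were also under the floor of 10.5. Claudins 3 and 7, of tight junctions, were at 5.03 and 10.2. Claudin 1 was at 35.9 on 1 of 2 probe sets and claudin 4 at 11.5, not told apart from unspecific signal. PKP3 at 38.5, CRB3 at 21.8 and JUP at 18.7 were also above the floor. KRT18, a keratin of simple epithelia, was at 1315 on its only probe set. The tight junction proteins TJP1 at 368 and OCLN at 155 were the other members that reached 100. KRT8, the usual partner of keratin 18, had 1 probe set at 21.5, and KRT7 had 28.2. Of 25 keratin genes measured, 8 (32%) lay above the floor, against 61.9% of all genes. Besides KRT18 only KRT10, at 351, reached 100. KRT80 was at 38.4 and KRT83 at 24.9. The keratin count was 13 with the floor at the 30th percentile, where 77.1% of all genes passed, and 3 at the 70th, where 44.3% passed. The epithelial cadherin and the keratins 5, 14, 19 and 20 were thus at or under the floor, with KRT19 at 4.20, while keratin 18 was bright.

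Mesenchymal genes had the highest median rank of the 9 lineage lists. Members of these lists were chosen with earlier results of these data known, so this order may depend on that choice. The mesenchymal list also holds the given marker AXL. Of its 29 members 21 (72.4%) were above the floor, against 61.9% of all genes. In this list 13 reached 100, and the median member was brighter than 71.1% of genes. VIM, vimentin, was at 5322, though its second probe set was at 11.5, and LGALS1, galectin-1, at 4397. The actin cytoskeleton genes TPM1 at 1271, MSN at 1185, TPM2 at 728 and CALD1 at 584 followed, with the caveolin CAV1 at 779 and 762 on its 2 probe sets. ZEB1, a repressor of E-cadherin, had 379 with 3 of 4 probe sets above the floor, and SPARC, a secreted collagen-binding protein, had 372. CDH2, N-cadherin, was at 82.2 and 16.9.

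The programme was partial. ZEB2 at 8.21, TWIST1 at 3.86, TWIST2 at 4.20 and PRRX1 at 5.03, which are transcription factors of mesenchymal transition, lay under the floor, and SNAI1 at 14.9 and SNAI2 at 12.9 were near it. FN1, fibronectin, reached 27 on the brightest of 7 probe sets, 4 of which were above the floor. CDH11, a cadherin of mesenchyme, was at 6.58, and the matrix genes LOX and POSTN were at 3.42 and 2.81. The plot of lineage genes shows the spread.

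**Figure D2:**
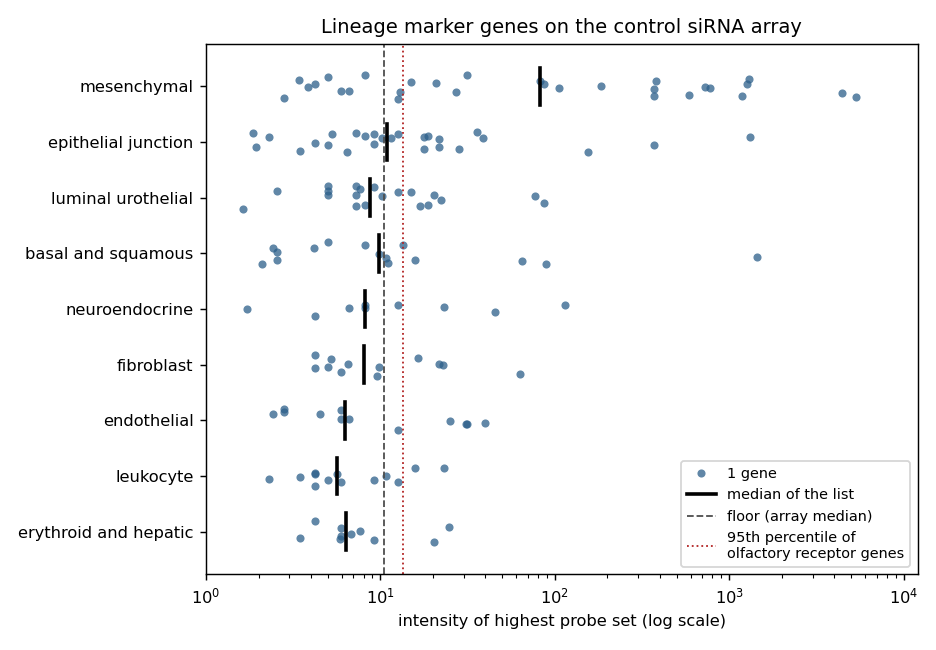
Intensity of the highest probe set (log axis) for each measured gene of 9 lineage lists on the control siRNA array. Points are genes, black bars list medians, the dashed line the floor at 10.5 and the dotted line the 95th percentile of olfactory receptor genes at 13.5. The mesenchymal median lies at 82.2, the epithelial junction median at 10.9 and the luminal, basal and other medians under the floor.

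Markers of other cell types were mostly at or under the floor, with ENO2 alone above 100. The 5 lists below had 20% to 44.4% of their members above the floor, against 61.9% of all genes. With the floor at the 30th percentile 77.1% of all genes passed. So did 9 of 12 fibroblast, 8 of 10 erythroid and hepatic and 7 of 9 neuroendocrine genes, shares close to that. The leukocyte and endothelial counts were then 7 of 13 and 8 of 12. At the 70th percentile, where 44.3% of all genes passed, each list had 0 to 3 members above the floor. Of 13 leukocyte genes 4 were above the floor, with CD79A at 23 as the brightest and PTPRC, the pan-leukocyte phosphatase CD45, at 2.28. Of 12 endothelial genes 5 were above it, with EGFL7 at 39.8, ROBO4 at 31.5 and TIE1 at 30.9, while CDH5 at 2.81 and KDR at 2.42 were under it. Of 12 fibroblast genes 4 were above it, COL1A1 at 63.2 on 1 of 5 probe sets, with DCN at 9.86 and COL1A2 at 4.20 under it. Of 10 erythroid and hepatic genes 2 were above it, TTR at 24.9 and HBB at 20.2, and ALB, albumin, was at 3.45. Of 9 neuroendocrine genes 4 were above it. ENO2, neuronal enolase, was at 115 and DLL3, an inhibitory Notch ligand, at 45.2, while INSM1 was at 1.71 and the granule protein CHGA at 6.58.

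Most cancer-testis genes encode proteins normally limited to germ cells and often turned on in tumours. Of 20 measured members 9 (45%) were above the floor, against 61.9% of all genes, and 4 of the 9 reached 100. The 9 include MAGED1 at 82.6 and MAGED2 at 49.3, MAGE relatives that many normal tissues express. MAGEA6 was at 642, MAGEA4 at 203 and MAGEA10 at 183, each on 1 probe set, and MAGEC2 at 311 on 1 of 2 probe sets. MAGE family members share long stretches of sequence, so these signals may include close copies. MAGEC1 at 10.2, PRAME at 8.3, CTAG2 at 9.20, GAGE1 at 2.09, SSX1 at 4.20 and MAGEB2 at 2.57 lay under the floor. The signal was therefore uneven over the family.

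HOX genes lie in 4 clusters and mark position along the body axis. Of 28 members measured 19 (67.9%) were above the floor, against 61.9% of all genes. In the HOXB cluster 9 of 10 genes were, in the order along the chromosome HOXB1 at 13.5, HOXB2 at 340, HOXB3 at 125, HOXB4 at 182, HOXB5 at 49.9, HOXB6 at 18, HOXB7 at 241, HOXB8 at 145 and HOXB9 at 46.8. Only HOXB13, set apart from its cluster at the posterior end, was under it at 5.94. In the HOXC cluster HOXC4 at 110 and HOXC6 at 141 were bright and HOXC9, HOXC10 and HOXC12 under the floor at 3.45 to 5.03, while HOXC11 and HOXC13 were at 31.5 and 39.5. In the HOXD cluster HOXD4 was at 99.96 (34.9 on its second probe set), HOXD8 at 44.3 and HOXD9 at 28.7. HOXD10 to HOXD12 were at 2.81 to 4.42, HOXD13 at 21.1 and HOXD1 at 7.59. The HOXA cluster was measured only by HOXA2, at 8.4.

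Receptor tyrosine kinases pass growth factor signals across the membrane. Of 47 measured members 29 (61.7%) were above the floor, close to the 61.9% of all genes. By the median over probe sets 17 were, where 54.5% of all genes passed. With the floor at the 70th percentile 14 were, where 44.3% of all genes passed. The 6 that reached 100 were AXL, MET at 589, EPHA2 at 359, RYK at 275, FGFR1 at 245 and EGFR at 147. MET binds hepatocyte growth factor, EPHA2 binds ephrin-A ligands and RYK binds Wnt proteins. All 4 MET probe sets and 6 of 7 for FGFR1 were above the floor, against 3 of 9 for EGFR. ERBB2 was at 53.5, IGF1R at 49 and FGFR3, a frequent oncogene of luminal bladder tumours, at 27.2 on 1 of 2 probe sets. ERBB3 was at 16.9, and ERBB4 at 4.45, PDGFRA at 6.5 and MST1R, the receptor of macrophage stimulating protein, at 7.23.

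**Figure D3:**
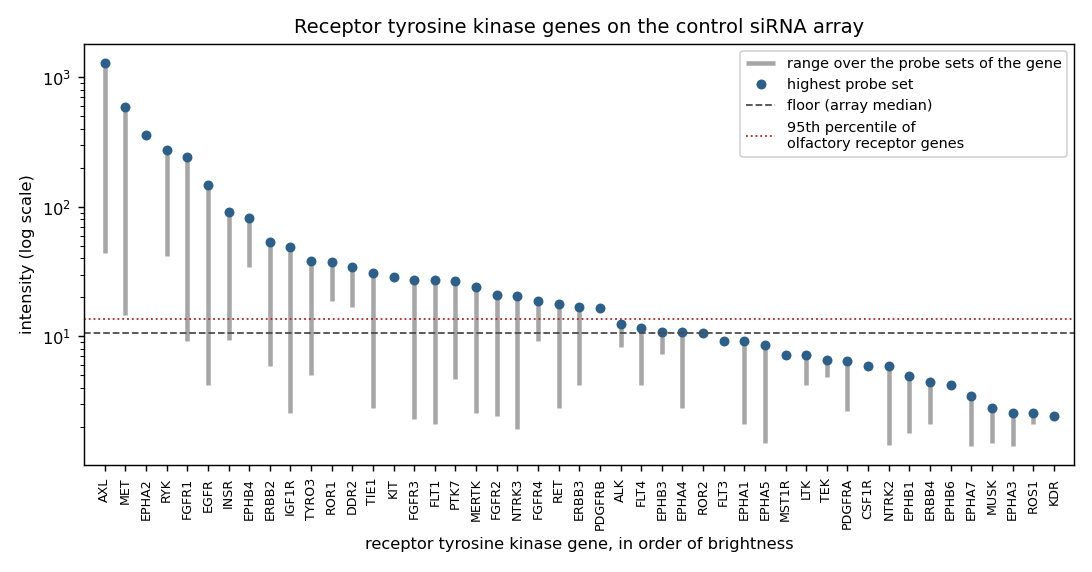
Intensity (log axis) of 47 receptor tyrosine kinase genes in order of brightness on the control siRNA array. Points are the highest probe set of a gene, grey bars run down to its lowest, the dashed line is the floor at 10.5 and the dotted line the 95th percentile of olfactory receptor genes at 13.5. AXL lies at 1290 and KDR, the dimmest, at 2.42, and most genes near the floor have a probe set under it.

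Some receptors had their ligands beside them. GAS6, which binds AXL, was at 144 with both probe sets above the floor. HGF, which binds MET, was at 20.9 on 1 of 5 probe sets. For EGFR, HBEGF was at 157 and EREG at 48.9, while EGF was at 2.28, TGFA at 7.23 and BTC at 1.5. NRG1, which binds ERBB3 and ERBB4, was at 394 with 4 of 6 probe sets above the floor. For FGFR1, FGF2 was at 81.2 and FGF1 at 46.2, and FGF7 was at 5.35. PDGFC at 337 was bright while both of its receptors were near or under the floor, with PDGFRB at 16.5.

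Of 45 cytokine, death and TGF-beta family receptors 36 were above the floor, against 61.9% of all genes, and the median member was brighter than 67.6% of genes. IL13RA2, a decoy receptor for interleukin 13, was at 1263 on its only probe set, while the signalling receptor IL13RA1 was at 16.9. IL6ST, the shared subunit gp130 of the interleukin 6 family, was at 550 and OSMR, its oncostatin M partner, at 493. IL6R at 22.2 and IL11RA at 32.8 were dim, and LIFR was at 57.2. TNFRSF12A, the receptor of TWEAK, was at 532, and the TRAIL receptors TNFRSF10A and TNFRSF10B at 311 and 286, with TNFRSF10D, a decoy for TRAIL, at 216. TGFBR2 was at 243 and TGFBR3 at 175. IL1R1 at 6.95, IL7R at 4.20, TNFRSF1B at 5.03 and TNFRSF11B at 2.81 lay under the floor, while the co-receptor IL1RAP was at 42.6.

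Of 40 G-protein-coupled receptors 20 were above the floor, and 12 with the floor at the 70th percentile, against 61.9% and 44.3% of all genes. ADORA2B, an adenosine receptor, was at 379, GPRC5A, an orphan receptor induced by retinoic acid, at 374 and ADGRG1, an adhesion receptor, at 219. NT5E, the ectoenzyme CD73 that makes adenosine, was at 754 with all 4 probe sets above the floor. CXCR4 at 5.03, ACKR3 at 5.03, S1PR1 at 2.28 and OXTR at 4.20 lay under the floor. PTGER4, a prostaglandin E2 receptor, was at 86.5 and PTGER2 at 2.51.

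Nuclear receptors were led by NR3C1, the glucocorticoid receptor, at 455 with all 5 probe sets above the floor. Of 28 members 18 (64.3%) were above it, near the 61.9% of all genes. The orphan receptors NR2F6 and NR2F1 were at 232 and 124, PPARD at 125 and VDR, the vitamin D receptor, at 61.5. PGR at 2.75, NR3C2 at 2.81, RARB at 7.23 and ESR2, whose 10.5 equals the floor, were not above it. ESR1 was at 13.9 on 2 of 9 probe sets.

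Of 21 Notch, Wnt and hedgehog receptor genes and ligands 18 (85.7%) were above the floor, against 61.9% of all genes. NOTCH2 was at 797 with all 4 probe sets above it and its ligand JAG1 at 134. NOTCH1 and NOTCH3 were at 47.5 and 37.2. FZD6 at 1.5, FZD10 at 1.86 and FZD9 at 5.03 lay under the floor.

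Integrins join cells to matrix, and 17 of 24 (70.8%) were above the floor, against 61.9% of all genes. By the median over probe sets only 9 were, where 54.5% of all genes passed. ITGB1, the beta subunit with the most partners, was at 2243, although 3 of its 7 probe sets were above the floor. ITGB5 at 541 and ITGAV at 328 form a vitronectin receptor, and ITGA2, ITGA3 and ITGA5 were at 166, 69.2 and 55.9. ITGB8 was at 4.20 and ITGAX at 9.20. ITGAE, a subunit known from epithelial T cells, was at 1206 on its only probe set, while its partner ITGB7 was at 20.8.

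Genes of antigen presentation by HLA class I were above the floor. B2M was at 2944, HLA-C at 753, HLA-B at 579 and HLA-E at 344, with all of their probe sets above the floor, and the peptide transporters TAP2 and TAP1 were at 295 and 87.8. Of the class II genes in the list, HLA-DRA was at 5.94 and HLA-DRB1 at 9.20, or 22.4 on a probe set that names several genes. The class II invariant chain CD74 was at 15.3 on the brightest of 3 probe sets, and CIITA, the activator of class II, at 14.8. CD47, a signal against phagocytosis, was at 1055, and the stress ligands MICB and MICA of natural killer cells at 397 and 192. Of the checkpoint ligands, CD274 (PD-L1) was at 9.20, PDCD1LG2 at 5.03 and VTCN1 at 4.20, all under the floor, and CD276 (B7-H3) at 133 on 1 of 3 probe sets.

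Among genes whose products are drug targets in bladder and other cancers, 11 of 16 (68.8%) were above the floor, against 61.9% of all genes. By the median over probe sets 7 were, where 54.5% of all genes passed. TUBB, the beta tubulin, was at 3295 and TOP1, the topoisomerase, at 931. NECTIN4 at 5.94, SLITRK6 at 5.71 and FOLH1 at 7.23 lay under it. FOLR1, the folate receptor, had probe sets that disagreed, at 320 and 4.6. MUC1 was at 38.5 and PSCA at 15.4.

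Of 34 collagen genes measured, 15 (44.1%) were above the floor, against 61.9% of all genes. With the floor at the 30th percentile 24 were, where 77.1% of all genes passed, and 6 at the 70th, where 44.3% passed. Only COL13A1, a collagen that spans the membrane, reached 100, at 211 with all 3 probe sets above the floor. The basement membrane chains COL4A2 and COL4A1 were at 65.5 and 53.5, each with 1 of 2 probe sets above the floor. Fibrillar chains lay on both sides of the floor. COL27A1 was at 76.2, COL1A1 at 63.2 on 1 of 5 probe sets, COL11A2 at 22.5 and COL5A1 at 14.5. COL5A3 at 11.1 was not told apart from unspecific signal. COL11A1 at 8.16, COL24A1 at 1.86, COL1A2 at 4.20, COL3A1 at 9.58, COL5A2 at 7.67 and COL2A1 at 3.29 lay under the floor. Of 13 laminins and basement membrane genes 11 (84.6%) were above the floor, against 61.9% of all genes. LAMC1 was at 286, LAMB1 at 83.5, LAMA5 at 82.9 and LAMB3 at 65.3.

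Of 14 enzymes and chaperones that modify collagen 10 (71.4%) were above the floor, against 61.9% of all genes. The lysyl hydroxylase PLOD2 was at 806, P4HB at 534, the lysyl oxidase LOXL2 at 369 and the transglutaminase TGM2 at 346. LOX at 3.42, LOXL1 at 3.52 and the collagen chaperone SERPINH1 at 6.99 lay under the floor. Other matrix proteins varied. The syndecan SDC4 was at 564, the matricellular proteins CCN1 and CCN2 at 477 and 248, TGFBI at 249 and HAPLN1, which links hyaluronan to proteoglycans, at 172 with all 4 probe sets above the floor. THBS1 at 9.20, SPP1 at 2.09, LUM at 4.20, FBN1 at 6.58 and THBS2 at 4.20 lay under it.

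Proteolysis at the surface was marked by PLAU and its receptor PLAUR at 377, with all 3 probe sets above the floor. Of 41 proteases and inhibitors 30 (73.2%) were above it, against 61.9% of all genes. The sheddases ADAM9, ADAM10 and ADAM17 were at 807, 657 and 301, and the cathepsins CTSB and CTSL at 686 and 542. TIMP1 was at 778 and TIMP2 at 389. Of the matrix metalloproteinases, MMP9 was at 167, the membrane-bound MMP14 at 115 with all 4 probe sets above the floor, and MMP16 at 96.3. MMP1 at 5.03, MMP3 at 2.42, MMP7 at 3.45, MMP10 at 3.20, MMP12 at 2.28 and MMP13 at 2.57 lay under it.

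Growth factors above the floor numbered 28 of 40, or 70%, against 61.9% of all genes. HDGF was at 1364 and VEGFA, which drives vessel growth, at 178. All 4 VEGFA probe sets were above the floor, the lowest at 10.8. ANGPT1 was at 116 and CSF1, which recruits macrophages, at 116. GDF15 at 5.94, INHBA at 4.73, TGFB2 at 5.94 and GREM1 at 2.09 lay under the floor, and TGFB1 was at 39.5.

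Of 28 cytokines and chemokines 14 (50%) were above the floor, against 61.9% of all genes. MIF was at 2090, CCL2, a chemokine for monocytes, at 321 and IL11 at 102. The neutrophil chemokines CXCL1, CXCL2, CXCL3 and CXCL8 were at 94.5, 68.2, 62 and 51, and LIF at 60.5. CXCL2 had 1 of 3 probe sets above the floor, with a median of 2.81, and CXCL8 had 1 of 2. IL6 at 4.20, TNF at 3.45, CXCL10 at 4.20, CXCL12 at 5.03 and CXCL5 at 2.28 lay under it. The interleukin 6 family was thus measured above the floor by IL11 and LIF and not by IL6.

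Of 35 secreted modulators 25 (71.4%) were above the floor, against 61.9% of all genes. S100A10, the partner of ANXA2, was at 2877. TFPI, an inhibitor of the start of clotting, was at 962 with all 5 probe sets above the floor, the lowest at 11.5. The hormone ADM, adrenomedullin, was at 389. STC1 was at 236, WNT5B at 205, IGFBP6 at 204 and SEMA3F at 156. IGFBP1 at 3.12, IGFBP2 at 7.23, WIF1 at 2.28, PTX3 at 1.97 and LCN2 at 8.21 lay under the floor.

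Glycolysis, which turns glucose into lactate, had 22 of 27 genes (81.5%) above the floor, against 61.9% of all genes. Its median member was brighter than 83.2% of genes. For several enzymes that more than 1 gene encodes, the copies lay far apart. ALDOA was at 2881 and ALDOC at 14.5. ENO1 was at 2054, ENO2 at 115 and the muscle copy ENO3 at 8.21. PGK1 was at 1892 and the testis copy PGK2 at 9.35, and PGAM1 was at 2349 and PGAM2 at 5.1. The hexokinases HK2 and HK1 were at 302 and 113 and HK3 at 13.5. PKM was at 409 and PKLR at 6.76. LDHA and LDHB were both bright, at 5153 and 5849. The glucose carrier SLC2A1 was at 154, and SLC2A3 at 6.58 on single-gene probe sets.

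Of 30 genes of pyruvate oxidation, the citrate cycle and linked enzymes 29 (96.7%) were above the floor, against 61.9% of all genes. The list also holds enzymes of the cytosol, MDH1 at 1399, ACLY at 874 and IDH1 at 392. Of those in mitochondria, MDH2 was at 1312, SUCLG1 at 1305 and citrate synthase, CS, at 681. PDK4, a brake on pyruvate dehydrogenase, was the exception at 7.23, while PDK1 and PDK3 were at 189 and 144. IDH2, the mitochondrial counterpart of IDH1, was at 24.9. Of 12 genes of glucose synthesis and glycogen 8 (66.7%) were above the floor, against 61.9% of all genes. GBE1 was at 518, while PCK1 at 1.71 and G6PC1 at 3.45 of the liver pathway were under the floor. In the pentose phosphate pathway 6 of 7 (85.7%) were above the floor, with TKT at 635 and TKTL1 at 7.03 under it.

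Of 39 genes of amino acid and polyamine metabolism 34 (87.2%) were above the floor, against 61.9% of all genes. ODC1, which starts polyamine synthesis, was at 2730, the glutamine carrier SLC38A2 at 2114, MAT2A, which makes the methyl donor, at 1298 and spermine synthase, SMS, at 1031. The folate enzymes MTHFD2 and SHMT2 were at 1001 and 915 and the branched-chain transaminase BCAT1 at 836 with all 4 probe sets above the floor. ASS1, which joins citrulline and aspartate on the way to arginine, was at 3.66 on its only probe set, and the next enzyme of that route, ASL, at 51.2. OTC at 2.42, ARG1 at 4.20, TDO2 at 4.1 and PRODH at 5.03 also lay under the floor.

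Of 30 lipid genes 25 (83.3%) were above the floor, against 61.9% of all genes. FABP5 was at 2413, ELOVL5 at 931, SCD, the stearoyl desaturase, at 889 and SQLE at 482. ACSL4, which loads polyunsaturated fatty acids onto coenzyme A, was at 1.86, with all 3 probe sets under the floor. FABP4 at 7.68, LPL at 9.20, CD36 at 9.48 and ABCA1 at 4.20 lay under it too.

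Defence against oxidants and toxic compounds had 33 of 44 genes (75%) above the floor, against 61.9% of all genes. PRDX1 was at 3718, the thioredoxin reductase TXNRD1 at 2499, TXN at 2152, GSTO1 at 2037 and NQO1 at 498. The metallothioneins MT2A, MT1X and MT1G were at 3663, 1777 and 894. MT1G had 1 of 2 probe sets above the floor, the other at 3.45. ALDH2 at 5.1, ALDH1A3 at 4.20, CYP1A1 at 8.23, CYP1B1 at 6.38, CYP4B1, an enzyme of the normal urothelium, at 5.94 and AKR1B10 at 8.21 lay under the floor. For iron, the ferritin chain FTL was at 2775 and the transferrin receptor TFRC at 2050, whereas SLC40A1, the iron exporter of cells, was at 2.57 and HAMP at 5.94.

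Of 31 genes often altered in bladder cancer, 29 (93.5%) were above the floor, against 61.9% of all genes. In this list 22 reached 100, as did 5095 of all 19775 genes. YWHAZ was at 1151, CCND1 at 1044, CDK4 at 802, ARID1A at 429, E2F3 at 365, CDKN1A at 363 and CDK6 at 316. RB1 was at 212 on 1 of 2 probe sets, STAG2 at 85.7 with all 3 above the floor and KDM6A at 22.5 on 1 of 4. The members under the floor were CDKN2A at 9.74 and CDKN2B at 3.45, neighbours that encode inhibitors of CDK4 and CDK6.

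Genes around CDKN2A on chromosome 9 were therefore read in order. MLLT3 at 97.6 and FOCAD at 190 came before the interferon genes, all of which were between 1.71 and 4.30, and KLHL9, between them, was at 309 on 2 of 4 probe sets. HACD4, an enzyme of fatty acid elongation, was at 2.57. MTAP, which salvages methionine and lies beside CDKN2A, had 1 of 6 probe sets above the floor, at 14.9. DMRTA1 at 5.03 and ELAVL2 at 4.20 followed, and beyond them TUSC1 was at 542, CAAP1 at 259, PLAA at 308 and IFT74 at 49.9. LRRC19 at 1.86 and TEK at 6.58, farther out, were again under the floor. On chromosome 10, MINPP1 was at 90.9 and STAMBPL1 at 273, and the measured members of the list between them were all under the floor. They were PAPSS2 at 9.86 with no probe set of 3 above the floor, ATAD1, which extracts misplaced proteins from mitochondria, at 2.83 with none of 2, RNLS at 2.57 with none of 2 and the stomach lipase LIPF at 2.81. Other list genes outside this interval were under the floor too, MMRN2 at 4.20 before MINPP1, and ACTA2 at 5.94 and CH25H at 1.99 beyond STAMBPL1. The DNA copy number of these stretches was not measured here.

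**Figure D4:**
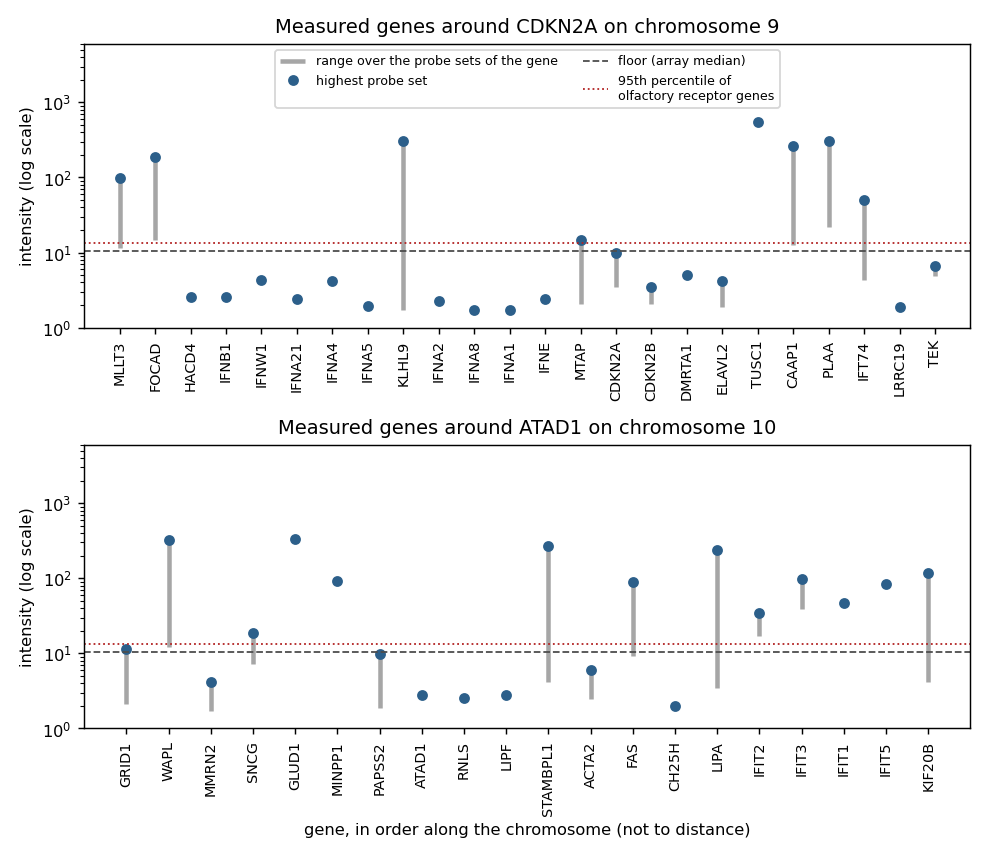
Intensity (log axis) of the measured list genes around CDKN2A on chromosome 9 (top) and around ATAD1 on chromosome 10 (bottom), in their order along the chromosome and not to distance. Points are the highest probe set of a gene, grey bars run down to its lowest, the dashed line is the floor at 10.5 and the dotted line the 95th percentile of olfactory receptor genes at 13.5. From MTAP to ELAVL2, values lie at 3.45 to 14.9, and from PAPSS2 to LIPF at 2.57 to 9.86.

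Of 16 long noncoding RNAs 12 (75%) were above the floor, against 61.9% of all genes. With probe sets that name several genes added, 20 of the list's 27 symbols were, where 62.9% of all genes passed. That setting also brings in RNAs not measured otherwise, so the counts do not share a base. MALAT1, an RNA of nuclear speckles, was at 2376 with all 12 probe sets above it, ZFAS1 at 1828, DANCR, the target of the study, at 671 and NORAD, which binds pumilio proteins, at 516. UCA1, an RNA first known from urothelial carcinoma, was at 5.94, and HOTAIR, transcribed from the HOXC cluster, at 1.75. MIR100HG was at 362 on 1 of 2 probe sets. GAS5 was at 11.5 on its single-gene probe set, but at 1365 on probe sets that also name small RNAs in its introns, so its low value is set by the choice of probe sets.

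Gene starts differed along the ranking in a feature the ranking did not use. RefSeq windows of 300 bases, 250 before and 50 after a gene's start, were matched to 15381 genes. The dinucleotide CG is rare in most of the genome because methylated cytosine mutates, and is kept near its chance level at many promoters of widely used genes. The ratio of observed to expected CG had a median of 0.871 in the brightest 10% of genes and 0.373 in the dimmest 10%. Its median fell slowly over the first 5 of 10 such groups, to 0.799, and then more steeply. Of 9943 genes with a ratio above 0.6, 78.8% were above the floor, against 37.9% of the other 5438. The word TATAAA, sought on the gene's strand in the last 50 bases before the start, was in 2.40% of windows in the brightest 10% and 6.83% in the dimmest, against 3.74% of all. Genes above the floor had a mean of 2.42 probe sets and the others 1.52, which also moves with these ranks, and its part was not tested.

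The 250 bases before the start are shown for 4 genes that were chosen after their values were seen, as a bright and a dark case of each kind, with every CG in capitals. RPS14 (8337, chr5:150449740-150449989, minus strand) and ATAD1 (2.83, chr10:87818227-87818476, minus strand) hold 23 and 25 of them. TFPI (962, chr2:187554436-187554685, minus strand) and KRT20 (1.63, chr17:40885243-40885492, minus strand) hold 2 each. All positions are in GRCh38.p14 and all sequences run 5′ to 3′ on the gene's strand. The bright gene TFPI thus has as few CG as the dark KRT20, and the dark ATAD1 about as many as RPS14. The value of RPS14 rests on 1 of 4 probe sets, with a median of 7.72 over them. CG content and brightness went together over the 15381 genes but not in each gene. ATAD1 lies in the chromosome 10 stretch described above, whose DNA copy number was not measured. Whether its low value relates to its promoter was not tested.

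RPS14: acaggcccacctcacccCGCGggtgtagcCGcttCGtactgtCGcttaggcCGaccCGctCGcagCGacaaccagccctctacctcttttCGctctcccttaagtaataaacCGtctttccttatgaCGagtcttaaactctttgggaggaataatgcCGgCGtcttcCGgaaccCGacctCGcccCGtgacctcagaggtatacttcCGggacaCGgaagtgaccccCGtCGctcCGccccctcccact
ATAD1: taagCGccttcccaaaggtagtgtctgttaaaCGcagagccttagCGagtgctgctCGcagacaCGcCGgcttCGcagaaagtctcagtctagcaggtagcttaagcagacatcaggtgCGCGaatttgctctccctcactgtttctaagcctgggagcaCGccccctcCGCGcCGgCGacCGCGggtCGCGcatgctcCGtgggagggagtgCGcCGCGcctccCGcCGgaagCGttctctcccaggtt
TFPI: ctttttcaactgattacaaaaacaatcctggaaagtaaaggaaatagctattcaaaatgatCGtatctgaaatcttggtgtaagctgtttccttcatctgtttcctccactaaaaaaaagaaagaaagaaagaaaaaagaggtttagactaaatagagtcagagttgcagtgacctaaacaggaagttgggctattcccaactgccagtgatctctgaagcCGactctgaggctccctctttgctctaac
KRT20: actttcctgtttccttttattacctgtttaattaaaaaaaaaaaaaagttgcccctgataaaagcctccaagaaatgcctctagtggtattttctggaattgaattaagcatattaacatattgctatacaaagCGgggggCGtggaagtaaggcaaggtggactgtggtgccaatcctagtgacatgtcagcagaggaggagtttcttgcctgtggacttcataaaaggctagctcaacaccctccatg

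**Figure D5:**
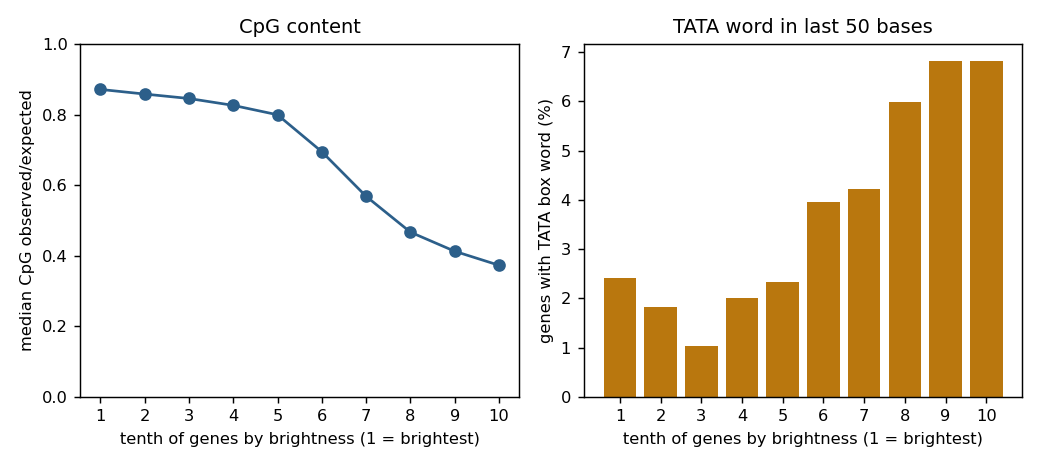
Left, median ratio of observed to expected CG in RefSeq gene start windows, and right, share of genes with the word TATAAA in the last 50 bases before the start, both in 10 groups of genes in order of brightness on the control siRNA array (group 1 is the brightest). The ratio lies at 0.871 in group 1 and 0.373 in group 10, and the share at 2.40% and 6.83%.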

How the data were processed

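The authors deposited an unlogged intensity for each probe set of each array. Per the labels' protocols, total RNA was amplified, biotin-labelled and hybridised to an Affymetrix array, and per the submitters' processing notes GCOS 1.4 was used. The background step, summary method and scaling are not given in the sources used here. Only the control siRNA column was read. Of its values, 69.6% were shared with another probe set, so ranks hold ties. The annotation supplied for the array assigned 41091 probe sets to 1 gene, 1801 to several and 11721 to none, besides 62 control probe sets. The highest single-gene probe set stood for its gene. Of 1152 symbols in 42 lists, 1005 could be read, 49 lay only on probe sets naming several genes and 98 are not reported here. The members and lists were chosen with earlier results of these data known. The rule for names covered the given markers, the 30 brightest genes, in each list the brightest 5 members and the first 5 at or under the floor, and all HOX, tumour, target and chromosome 9 and 10 list genes. Not every gene it covers is described, and the choice among them, and of all other genes named, was made after their values were seen. Sequences are from RefSeq tables of GRCh38.p14, with the mean CG ratio taken over the windows of 3914 genes with several. The choice of the highest probe set and the ranking were checked on simulated data. Its bright and dim genes lay far apart, so values near the floor were not tested. Python 3.11.15, numpy 2.4.6, pandas 2.3.3 and matplotlib 3.10.9 were used.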

Additional observations from a re-analysis of the deposited data

How the results depend on the processing

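The count of 12236 genes above the floor was 15247 with the floor at the 30th percentile (5.03), 8764 at the 70th (29.2) and 11419 at the 95th percentile of olfactory receptor genes. It was 10787 by the median over a gene's probe sets, 9500 of 17098 genes without probe sets with _s_at and _x_at suffixes, and 13426 of 21357 with probe sets that name several genes. Of the 682 list genes above the floor, 454 stayed above it in all 6 alternatives that held them, and of the 323 at or under it 176 stayed there. Of the 42 lists, 9 changed their count by over 1.5 times with the floor at the 30th percentile, 19 at the 70th, 7 by the median over probe sets and 1, the leukocyte list, under the olfactory receptor floor. At the 30th percentile the luminal count rose from 8 to 15 of 20 and the epithelial from 13 to 20 of 26, while 77.1% of all genes passed, so their shares were then close to that of all genes. Without the suffixed probe sets 19 lists changed so, the 5 given markers among them, of which 2 stayed above the floor and the other 3 have suffixed probe sets alone. The mesenchymal list was not among the lists so changed in any alternative. With probe sets of several genes added, HLA-DRB1, MIR17HG, PVT1, SEMA3B, SLC2A3 and UGT1A6 passed the floor. The long noncoding RNAs, from 12 to 20 with RNAs not measured otherwise, were the 1 list whose count changed by over 1.5 times. The difference in median CG ratio was 0.499 between the brightest and dimmest 10% of genes and 0.380 between genes above and at or under the floor. No paired analysis was possible because each group has 1 array. Signal near the floor limits the dim genes, and the single array leaves the spread between cultures unmeasured.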

Other observations

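Neighbouring genes under the floor were counted after the values were seen, as a description. Of 9931 genes with a CG ratio above 0.6 and a chromosome position, none of them on chromosome 8, runs of consecutive genes at or under the floor were mostly short, with 1128 runs of 1 gene and 274 of 2. The longest held 8 protocadherin genes of the beta cluster on chromosome 5, from PCDHB2 to PCDHB14, none above 10.2. The next held 7 genes on the X chromosome, from IRS4 to CHRDL1 and none above 9.20, and included ACSL4. Runs of 6 genes lay on chromosome 17, from ABCA5 to SSTR2, on chromosome 19, in a cluster of zinc finger genes from ZNF569 to ZNF540, and on chromosome 4, from TRAM1L1 to USP53. Genes of chromosomes 8 and Y were not analysed here. Over the other chromosomes, the share of such genes above the floor ran from 67.4% of 423 on chromosome 4 and 70.3% of 337 on the X chromosome to 87.1% of 256 on chromosome 20.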
